A study of Mus musculus with 3 samples.

Results

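Nuclear receptors are transcription factors that bind DNA through a pair of zinc fingers and carry a second domain that, in many of them, holds a hormone or another small lipid. Nr2f1 and Nr2f2 encode the COUP-TF proteins, orphan receptors that act mostly as repressors and are known from the ganglionic eminences, where cortical interneurons are born. Rora and Rorb encode receptors of the ROR group, which compete with the REV-ERB repressors for the same sites. Nr4a2 and Nr4a3 belong to a group of early response genes that work without a known hormone. Nr3c1 and Nr3c2 encode the glucocorticoid and mineralocorticoid receptors, Esrrg an estrogen-related orphan receptor, and Thra a receptor for thyroid hormone. These 10 genes were chosen by name out of the 31053 genes counted.

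The libraries held green fluorescent cells sorted from the neocortex of Sst-Cre; RCE mice, in which any cell that has once expressed Cre from the Sst locus stays labelled, whatever its present Sst level. There was 1 library for each of E16.5, P1 and P5, made from 6, 3 and 3 pooled animals. Myelin was removed at P1 and P5, and the P5 tissue was also treated with trypsin and DNase, so stage, animals and tissue handling cannot be told apart. With 1 pooled library per stage, every interval below is a 95% interval of counting error only, exact Poisson for CPM (a gene's UMIs scaled by all UMIs of the same cells) and Clopper-Pearson for shares of cells, and holds nothing of the spread between animals.

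Of the 12324 barcodes, the number of cells the study states before its quality control, 9433 had more than 700 genes and under 10% mitochondrial UMIs (3952, 2501 and 2980 from the E16.5, P1 and P5 libraries). The members were read in 3 classes of these cells. Nos1 cells, with at least 1 Nos1 UMI, numbered 67, 434 and 547 at E16.5, P1 and P5. Sst-high cells, with at least 5 Sst UMIs and no Nos1 UMI, numbered 1920, 757 and 896. Sst-silent cells, with an Lhx6 UMI but neither Sst nor Nos1 UMIs, numbered 774, 465 and 545. Median UMIs per cell differed between them: 7863, 3704.5 and 3073 in Nos1 cells, 6457, 4557 and 5542.5 in Sst-high cells, 4979.5, 3086 and 3316 in Sst-silent cells. Shares of cells with a UMI are therefore given for part of the members also after thinning each cell to 2000 UMIs. Those of Rorb and Nr4a2 are given unthinned only. Doublets were not called. The E16.5 Nos1 class was mixed, as 15 of its 67 cells (22.4%) held a Neurod2 or Neurod6 UMI, against 4.61% at P1 and 0.548% at P5.

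A gene was called between classes when it differed at least 2-fold in the same direction in all 3 libraries. Between Nos1 and Sst-high cells, 1 of the 8 members with enough UMIs was called higher, Rorb, and 1 lower, Nr2f2. Among all genes 0.975% were called higher (115 of 11798) and 0.746% lower, so a list of 8 genes taken at that rate would hold fewer than 1 of either. Between Sst-silent and Sst-high cells no member was called higher and 1 of 7 lower, again Nr2f2, beside 0.299% and 0.725% of all genes. From E16.5 to P5, called when all 3 classes moved at least 2-fold the same way, 1 of 7 members was higher, Nr3c1, and 1 lower, Nr2f1. Stage calls were far more common among all genes, at 9.46% higher and 7.52% lower, and the members' single call each way lies close to these rates for so few genes. Which library was included mattered for the Nos1 comparison: without P5, Rorb and Nr4a3 were called higher, and without E16.5, Nr2f1, Nr2f2 and Nr4a2 were called lower. Of all calls between Nos1 and Sst-high cells 56.7% were higher, but 45.6% when CPM was averaged over cells, 37.3% when cells were thinned before classing and 37.7% with at least 3 Nos1 UMIs, so neither direction prevailed in all of these.

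**Figure D1:**
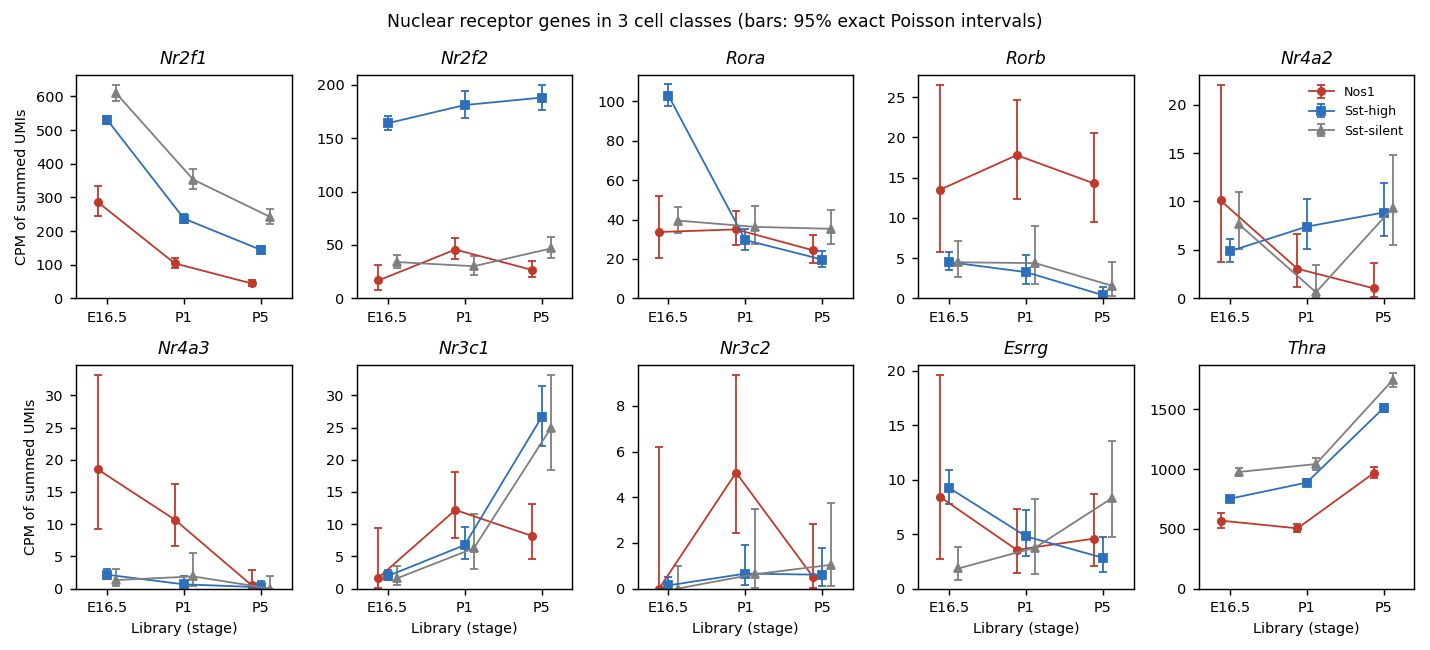
CPM of each of the 10 members (vertical axis, linear scale) in the E16.5, P1 and P5 libraries (horizontal axis) for Nos1, Sst-high and Sst-silent cells, with exact Poisson 95% intervals as bars. Nr2f2 is set apart in Sst-high cells (164, 181 and 188 CPM), Nr2f1 is lower at P1 and P5 than at E16.5 in every class, and Nr3c1 is highest at P5 in Sst-high and Sst-silent cells.

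Nr2f1 was detected in every class and library. In Sst-high cells its E16.5, P1 and P5 values were 531 CPM [519-543], 237 [223-251] and 144 [133-155]. Nos1 cells had 286 [245-333], 104 [90.3-119] and 44.3 [35.5-54.7], and Sst-silent cells 609 [585-635], 353 [324-383] and 242 [221-265]. Each class was lower at each later stage, without overlap of the intervals. The step from P1 to P5 depended on the filter: with a stricter one (more genes, under 5% mitochondrial UMIs), Nr2f1 stood at 148 CPM at both stages in Sst-high cells and at 258 and 266 in Sst-silent cells, of which P1 then had 184 and 102, while E16.5 stayed high at 539 and 592. In Nos1 cells the log2 ratio of P5 over P1 was then -0.21, against -1.21 in the main analysis. At each stage the order was the same, Sst-silent above Sst-high above Nos1. The log2 ratio of P5 over E16.5 was -2.66 in Nos1, -1.88 in Sst-high and -1.33 in Sst-silent cells, which made the call. The Nos1 ratio also holds a larger share of Chodl cells at P5 (60.0% against 22.4% at E16.5), and these are low in Nr2f1. From E16.5 to P5 Nr2f1 went from 340 to 96.7 CPM in Nos1 cells without Chodl. With Chodl it went from 29.0 to 13.0, with overlapping intervals. The part of the Chodl share in the ratio was not tested. Between Nos1 and Sst-high cells the log2 ratio was -0.89 at E16.5, just short of 2-fold, then -1.18 and -1.68. Shares of cells followed: after thinning, 62.8%, 37.2% and 35.0% of Sst-silent cells held an Nr2f1 UMI, 53.3%, 27.4% and 20.4% of Sst-high cells, and 26.2%, 12.9% and 6.52% of Nos1 cells. Excitatory cells caught in the sort (at least 2 Neurod6 UMIs, no Gad1 or Gad2; 34, 23 and 14 cells) also carried Nr2f1, at 246, 364 and 368 CPM, so they give no estimate of stray RNA for this gene.

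Nr2f2 differed between classes at every stage. Sst-high cells held 164 CPM [158-171], 181 [169-194] and 188 [176-200] at E16.5, P1 and P5. Nos1 cells held 16.8 [8.07-31.0], 45.7 [36.7-56.2] and 26.5 [19.8-34.7], and Sst-silent cells 34.0 [28.4-40.4], 30.1 [22.2-39.9] and 46.7 [37.6-57.5]. Sst-high cells were the high class at every stage, with intervals far from those of both other classes. When cells were thinned before classing, so that the Sst-silent class also took in cells with few Sst UMIs, Sst-silent and Sst-high cells held 48.0 and 82.4 CPM at P1 and 103 and 149 at P5, less than 2-fold apart, and the Sst-silent call was lost. In the main classes Nos1 and Sst-silent cells overlapped at E16.5 and P1, and at P5 Nos1 cells were the lowest without overlap. The log2 ratio of Nos1 over Sst-high cells was -3.21, -1.96 and -2.78, and that of Sst-silent over Sst-high cells -2.24, -2.55 and -1.98. P5 over E16.5 was within 2-fold in each class, 0.62 in Nos1, 0.19 in Sst-high and 0.45 in Sst-silent cells. It did not stay so under every setting: without the Neurod cells Nos1 cells went from 2.48 CPM, a single UMI, to 26.6 (log2 ratio 2.99), and with the stricter filter Sst-silent cells went from 33.5 to 91.0 (1.42). In Nos1 cells P1 stood apart from both other stages without overlap, at 1.39 over E16.5, with P5 over P1 at -0.76. However, 5 of the 434 P1 cells held 60.0% of these UMIs, and with the stricter filter the Nos1 values were 19.1, 16.1 and 28.1 CPM, with P1 no longer the highest. An Nr2f2 UMI was present in 34.6%, 25.2% and 31.8% of Sst-high cells. The shares were 7.46%, 6.22% and 3.11% in Nos1 cells and 10.9%, 5.16% and 4.77% in Sst-silent cells. Among the excitatory cells they were 14.7%, 4.35% and 0% (upper limit 23.2%) at median depths of 11243.5, 5368 and 4644 UMIs. These excitatory cells were few and not matched in depth, so they give no estimate of stray RNA for Nr2f2. The part of stray RNA in the low shares was not tested. After thinning, the shares were 20.6%, 15.9% and 20.7% of Sst-high cells, 1.54%, 4.49% and 2.90% of Nos1 cells, and 5.56%, 3.07% and 4.12% of Sst-silent cells. Lhx6 cells with 1 to 4 Sst UMIs lay in between, at 113, 134 and 170 CPM.

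Within Sst-high cells Nr2f2 was highest with Reln and Npas1, which mark Martinotti cells, the interneurons whose axons climb to layer 1. Cells with at least 2 Reln UMIs held 197 [183-211], 259 [240-279] and 255 [238-274] CPM at E16.5, P1 and P5, and cells with at least 2 Npas1 UMIs 202 [183-222], 318 [289-349] and 252 [231-273]. Both groups lay above all Sst-high cells at each stage. Not every Martinotti marker went with it. Low values came from the 37 E16.5 cells with Tac1, a non-Martinotti gene, 48.2 [27.5-78.2], and at P5 from the 26 cells with Calb2, itself on the Martinotti list, 62.8 [32.4-110], and the 110 with Pdyn, 111 [87.9-138]. Cbln4 cells held 74.6 [44.9-117] at E16.5 and 254 [193-328] at P1, 25 cells each. Nr2f1 had another order: among Sst-high groups at E16.5 it was highest in Etv1 cells (566 CPM) and lower in Cbln4 (349) and Tac1 cells (361), and at P5 it was lowest in Pdyn cells, 66.1 [48.6-87.9]. By level of Sst itself Nr2f2 varied less, at 182 and 152 CPM at E16.5, 207 and 146 at P1 and 191 and 180 at P5 in cells with 5 to 19 and with 20 or more Sst UMIs.

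Sst-high cells were also split by Nr2f2 itself. The Martinotti and non-Martinotti lists were chosen with results of these same cells known. Their ratios are therefore a description and no separate support for the marker groups above. The sums of this split were not set to equal depth. Cells with an Nr2f2 UMI numbered 665, 191 and 285, and those without 1255, 566 and 611; the former were deeper (medians 7430, 9532 and 6302 against 6165, 3643 and 5146 UMIs). The Martinotti list had a median log2 ratio, with over without, of 0.42, 0.77 and 0.43. The non-Martinotti list had -0.59, -0.96 and -1.72, while the median over all genes was -0.02, -0.03 and -0.01. At P5 none of the 11 non-Martinotti genes with enough UMIs was above 0, and 8 were at least 2-fold lower in cells with Nr2f2. Tac1 was the extreme, with log2 ratios of -3.37, -3.84 and -5.17, the last from 0 UMIs in cells with Nr2f2 against 110 in cells without. Only 37, 8 and 14 Sst-high cells held at least 2 Tac1 UMIs at E16.5, P1 and P5. The ratios of Ptprd (-0.67, -0.95 and -1.72) and Erbb4 (-0.80, -1.46 and -1.94) were larger at each later stage. The Martinotti list was not uniform, with 9 of 14 genes above 0 at P5, Htr1a lower at each stage (-0.84, -1.52 and -2.17) and Gpx3 at -1.14 at E16.5, while Reln (0.52, 0.96 and 0.69) and Elfn1 (0.61, 0.76 and 0.67) were higher in Nr2f2 cells throughout. Chrna2, a marker of Martinotti cells in layer 5, had 3.06 at P5. In the sums Rora was higher with Nr2f2 (0.63, 0.84 and 0.88). At equal depth, however, a Rora UMI was found in 18.5% [14.7-22.7] of cells with Nr2f2 and 13.9% [12.1-15.7] of those without at E16.5, then 4.17% [1.15-10.3] and 5.92% [4.03-8.34] at P1, and 5.52% [2.56-10.2] and 3.21% [1.97-4.91] at P5. These intervals overlapped at every stage and the P1 shares ran the other way. Nr4a2 was lower in the sums of cells with Nr2f2, most of all at P1 (-2.11).

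The same split by Nr2f1 was weaker and less steady. Sst-high cells with an Nr2f1 UMI had Martinotti medians of 0.39, 0.31 and -0.23 and non-Martinotti medians of -0.03, 0.24 and 0.27. Tac1 turned from -3.15 at E16.5 to 1.34 at P1 and 3.34 at P5, and Nts, at -5.06 at E16.5 (1 UMI in cells with Nr2f1 against 91 without), stood at 1.49 at P5. At E16.5 the cells with Nr2f1 held 134 Tac1 UMIs and those without 279, whereas at P5 the numbers were 101 and 9. These ratios rest on few cells: at least 2 UMIs were held by 37, 8 and 14 cells for Tac1 and 6, 0 and 7 for Nts. In cells thinned to equal depth, Nr2f2 was found in 27.3% [24.6-30.2] of cells with Nr2f1 and 13.0% [10.8-15.4] of those without at E16.5. At P1 the shares were 23.0% [16.8-30.2] and 13.2% [10.2-16.8], and at P5 16.9% [11.4-23.6] and 21.7% [18.6-25.2]. The pair was therefore found together more often at E16.5, less clearly at P1, and at P5 the intervals overlapped. Genes of caudal ganglionic eminence and Meis2 cells had medians of 0.57, 1.09 and 0.23 by Nr2f2, at E16.5 and P1 above those of the Martinotti list though from only 8 and 5 genes, and -0.66, 0.31 and -0.16 by Nr2f1. Immediate early genes had 0.01, -0.21 and -0.39 by Nr2f2 and 0.21, 0.44 and -0.01 by Nr2f1.

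**Figure D2:**
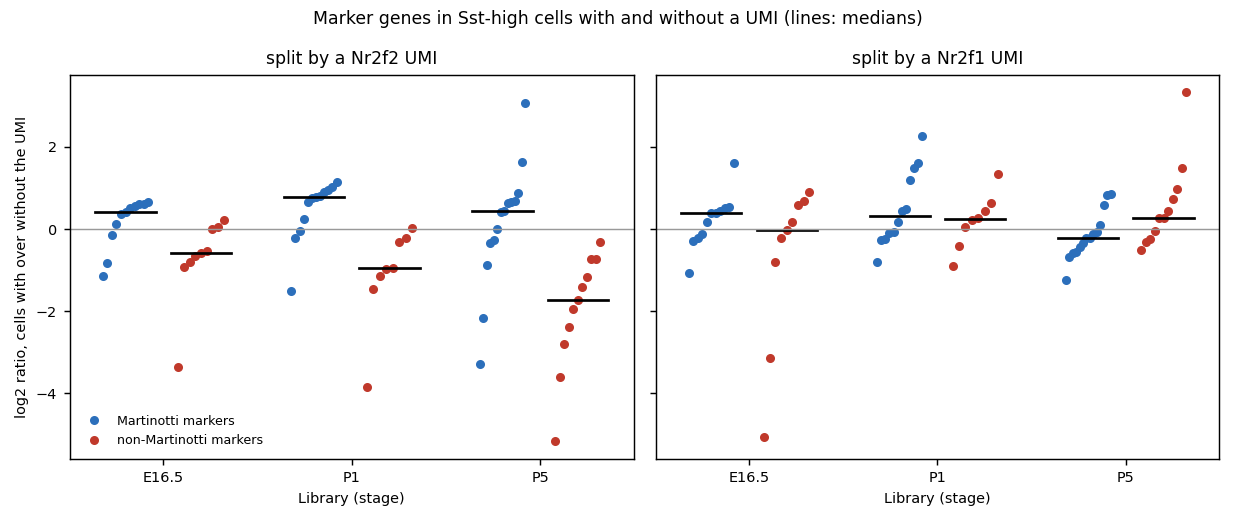
Log2 ratio of Martinotti and non-Martinotti markers in Sst-high cells with over without an Nr2f2 or Nr2f1 UMI, by library, for genes with at least 10 UMIs, lines marking medians. In the split by Nr2f2 the non-Martinotti median is negative in each library and reaches -1.72 at P5. Some non-Martinotti markers are still higher in cells with Nr2f2 in the E16.5 and P1 libraries. The split by Nr2f1 has Martinotti medians of 0.39, 0.31 and -0.23.

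Nos1 cells were further split by Chodl, a marker of long-range projection neurons, a split chosen after the class values were seen. Cells with a Chodl UMI made up 15, 224 and 328 of the Nos1 cells at E16.5, P1 and P5, with median depths of 5869, 4022.5 and 3207 UMIs against 8540, 3404.5 and 2582 in the remainder. Nr2f1 stood at 29.0 CPM [5.98-84.7], 38.2 [27.2-52.3] and 13.0 [7.44-21.1] with Chodl, and at 340 [291-396], 175 [149-204] and 96.7 [75.6-122] without. Nr2f2 was at 0 (upper limit 35.6), 29.4 [19.8-42.0] and 0 (upper limit 3.00) with Chodl, and at 20.4 [9.77-37.5], 63.2 [48.2-81.3] and 70.9 [52.9-92.9] without. Nr2f1 intervals were apart at each stage, and those of Nr2f2 at P1 and P5. Nos1 cells without a Chodl UMI still lay below Sst-high cells in Nr2f1 at each stage, but can include Chodl cells missed by detection. Low Nr2f2 was not confined to the Chodl cells, as the 20 P1 Neurod cells held 5.37 [0.136-29.9]. Of the 10 Nr2f2 UMIs in E16.5 Nos1 cells, 9 lay in cells with a Neurod2 or Neurod6 UMI. The Nos1 cells with Dach1 held Nr2f1 at 79.7 [43.6-134], 28.8 and 21.8 CPM, and those with neither Dach1 nor Lypd1 at 378, 151 and 76.3.

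**Figure D3:**
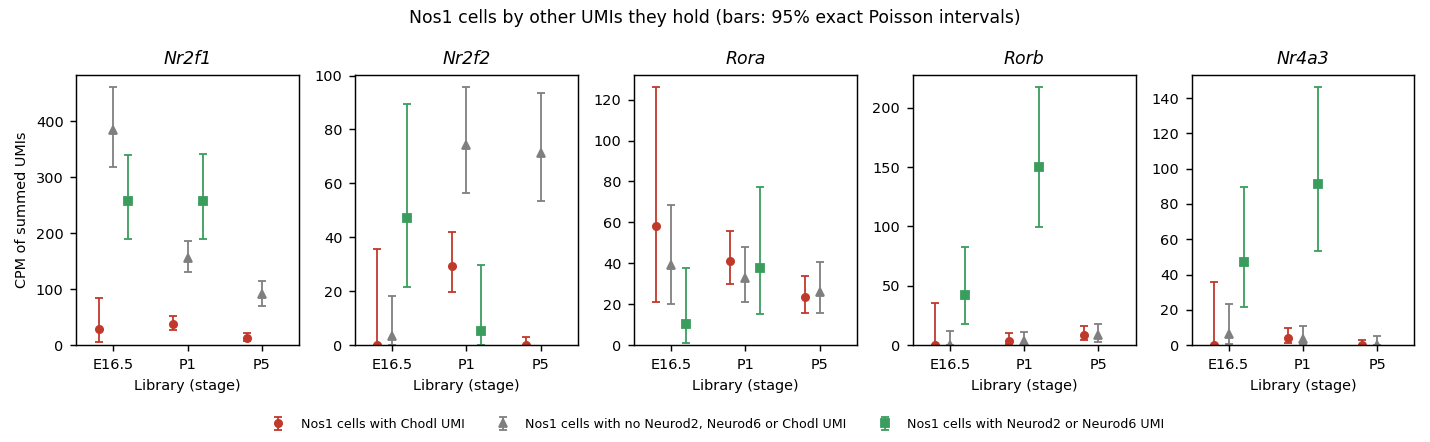
CPM of Nr2f1, Nr2f2, Rora, Rorb and Nr4a3 (exact Poisson 95% bars) in Nos1 cells with a Chodl UMI, with a Neurod2 or Neurod6 UMI, and with none of these, for groups of at least 15 cells. Rorb (150 CPM at P1) and Nr4a3 (91.3) peak in the Neurod cells, and Nr2f1 is lowest in the Chodl cells.

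Rora differed most between stages in Sst-high cells. There it stood at 103 CPM [97.9-109] at E16.5, 29.6 [24.8-35.0] at P1 and 19.7 (upper limit 24.1) at P5. Nos1 cells had 33.7 [20.6-52.0], 35.0 [27.3-44.3] and 24.4 (upper limit 32.4), and Sst-silent cells 39.5 [33.4-46.4], 36.3 [27.6-47.0] and 35.3 [27.4-44.8], with overlapping intervals across stages in both. The Nos1 ratio of Rora from E16.5 to P5 (-0.45) was unsteady, as thinning gave 69.2 to 19.3 CPM after classing and 78.1 to 20.1 before (log2 ratio -1.91 for the latter) and the ratio was 0.97 without the cells richest in immediate early RNA. P5 over E16.5 in Sst-high cells was 5.02-fold lower, and most of that was reached by P1 (log2 ratio -1.77). In consequence Rora began as a gene high in Sst-high cells and ended slightly higher in Sst-silent cells, with log2 ratios of Sst-silent over Sst-high of -1.36, 0.29 and 0.81. Thinned shares of Sst-high cells with a Rora UMI were 14.8%, 5.64% and 3.69%, beside 14.7%, 8.70% and 0% of the deeper excitatory cells before thinning. By marker, Etv1 cells were high at E16.5 (178 CPM [164-194]) and, in only 21 cells, at P1 (191 [142-251]). Npas1 cells went from 126 to 6.36 [2.91-12.1] at P1, and Tac1 cells were low already at E16.5, 9.03 [1.86-26.4]. The Sst-high difference in Rora between E16.5 and P1 was thus not shared by its Etv1 cells, which were also far rarer in the later libraries (263, 21 and 15 cells). In Nos1 cells, Rora was 58.0 [21.3-126], 41.2 [29.7-55.7] and 23.6 [15.8-33.9] CPM with Chodl and 28.5 [15.6-47.9], 28.4 [18.7-41.4] and 25.9 [15.6-40.4] without, all overlapping. At P1 the Dach1 cells among them held more Rora, 64.3 [43.1-92.4], than the Lypd1 cells, 17.3 [6.37-37.8], or those with neither, 28.4 [19.7-39.7], without overlap, while at E16.5 and P5 the groups overlapped.

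Rorb was called higher in Nos1 cells, yet its UMIs there came from few cells. Nos1 cells held 13.5 CPM [5.81-26.5], 17.8 [12.4-24.7] and 14.3 [9.48-20.6] at E16.5, P1 and P5, Sst-high cells 4.51 [3.48-5.75], 3.26 [1.83-5.38] and 0.403 [0.0488-1.46]. The Nos1 values were the high ones at each stage and the intervals did not overlap. However, the 8, 35 and 28 UMIs lay in 2, 12 and 8 cells. The share of Nos1 cells with Rorb was thus 2.99%, 2.76% and 1.46%. It was close to that of Sst-high cells at E16.5 (3.02%) and P1 (1.72%), though not at P5 (0.223%). These shares were not set to equal depth. The 5 highest cells held 100%, 74.3% and 89.3% of the class's Rorb. Many were cells with excitatory RNA: Nos1 cells with a Neurod2 or Neurod6 UMI had 42.0 CPM [18.1-82.7] at E16.5 and 150 [99.9-217] at P1, against 0 (upper limit 9.14) and 3.93 [1.58-8.09] in the others. At P5, 21 of the 28 UMIs were in the 3 such cells, and the others had 3.58 [1.44-7.38]. Without these cells Rorb was no longer called, and at P5 it then had too few UMIs for a ratio. Excitatory cells of the sort carried Rorb at 85.4 [59.1-119], 161 [102-241] and 32.0 [3.88-116] CPM, in 26.5%, 34.8% and 7.14% of cells. Sst-silent cells had 4.48 [2.61-7.17], 4.38 [1.76-9.03] and 1.56 [0.321-4.55], overlapping with Sst-high cells throughout. Within Sst-high cells at E16.5, Npas1 cells were above the class, at 11.8 [7.53-17.5].

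Of 11 clock genes that share sites or feedback with ROR proteins and had enough UMIs, none was called for Nos1 or Sst-silent over Sst-high cells. At the rates of all genes (0.975% at most) a list of this size would also give none. By stage 2 of 8 were called higher and 1 lower, beside 9.46% and 7.52% of all genes. Cry2 had P5 over E16.5 log2 ratios of 1.12 in Nos1 and 1.37 in Sst-high cells, and Cry1 -1.05 and -1.39.

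Nr4a2 was sparse, and its pattern differed by class. Sst-high cells held 4.86 CPM [3.79-6.14], 7.40 [5.12-10.3] and 8.86 [6.44-11.9] at E16.5, P1 and P5. Nos1 cells held 10.1 [3.71-22.0], 3.05 [1.12-6.63] and 1.02 [0.123-3.68], from 6, 6 and 2 UMIs. Nos1 cells were thus lower at P5 without overlap, while in the earlier libraries the intervals overlapped. At P1, 5 of the 6 UMIs lay in the 20 Neurod cells, and the other Nos1 cells held 0.561 [0.0142-3.12], below Sst-high cells without overlap. With so few UMIs the P1 ratio of Nos1 over Sst-high cells (-1.05) turned to 0.36 and 0.57 under thinning after and before classing, so the Nr4a2 call without E16.5 is weak. Sst-silent cells had 7.64 (lower limit 5.12), 0.626 [0.0159-3.49] and 9.35 [5.54-14.8], with the P1 value, a single UMI in 465 cells, apart from both others. Shares of Sst-high cells with Nr4a2 were 3.02%, 3.04% and 3.12%.

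Nr4a3 was highest in Nos1 cells at E16.5 and P1, with 18.5 CPM [9.24-33.1] and 10.7 [6.60-16.3], and was close to absent at P5, 0.509 [0.0129-2.84]. Sst-high cells had 2.15 [1.46-3.06], 0.653 [0.135-1.91] and 0.201 [0.00510-1.12], and Sst-silent cells 1.32 [0.428-3.07], 1.88 [0.387-5.49] and 0 (upper limit 1.92). The intervals of Nos1 and Sst-high cells were apart at E16.5 and P1, and no ratio was formed at P5, where the UMIs were too few. As with Rorb, cells with excitatory RNA carried most of it. The 7 and 10 Nos1 cells with an Nr4a3 UMI at E16.5 and P1 also held Meis2 in 57.1% and 60.0%. Among those without, 15.0% and 2.59% did. Cells with Nr4a3 were deeper as well (medians 11540 and 7218.5 UMIs against 7376 and 3628.5). Nos1 cells with Neurod2 or Neurod6 had 47.2 [21.6-89.6] and 91.3 [53.2-146] CPM of Nr4a3 at E16.5 and P1, against 4.96 (upper limit 17.9) and 2.24 [0.611-5.74] without, and excitatory cells 40.2 [23.0-65.2], 203 [136-291] and 48.0 [9.90-140]. Rorb and Nr4a3 were thus both higher in the Neurod cells, but whether they lay in the same ones was not tested. Whether these cells were mixed droplets or neurons expressing Nos1 was not tested.

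Nr4a genes answer quickly to neuronal activity and to handling of tissue, so they were set beside 17 immediate early genes. None of 10 with enough UMIs was called higher in Nos1 cells and 1 was called lower, Fosl2 (log2 ratios -1.49, -1.41 and -2.86). The all-gene shares there were 0.975% higher and 0.746% lower. For Sst-silent cells no immediate early gene was called. From E16.5 to P5, 5 of 10 were called lower, beside 7.52% of all genes, with medians of -1.69, -1.61 and -1.18 in Nos1, Sst-high and Sst-silent cells. Junb (-3.38, -2.89 and -2.73), Fos (-2.50, -2.19 and -2.21) and Dusp1 (-2.54, -2.49 and -3.74) led this. In Nos1 cells Nr4a2 and Nr4a3 had the same order, lower at P5 than at E16.5, and so had Nr4a3 in Sst-high cells (log2 ratio -1.39), whereas Nr4a2 in Sst-high cells was highest at P5. Nr4a1, the third gene of the group and not a member, was low throughout, with 2.92 [2.10-3.94], 6.53 [4.40-9.32] and 1.41 [0.567-2.91] CPM in Sst-high cells. Summed over the list, immediate early RNA stood at 951, 447 and 770 CPM in Nos1 cells, 727, 358 and 620 in Sst-high cells and 459, 183 and 443 in Sst-silent cells, with Jund the most abundant gene, so the P1 library was the lowest. For Nr4a2, P1 was the lowest stage only in Sst-silent cells, on 1 UMI. Its lowest value was at E16.5 in Sst-high cells and at P5 in Nos1 cells. The member ratios were also recomputed without the cells richest in immediate early RNA. Of these ratios 115 stayed within their counting interval, 13 moved and 0 changed the sign of a ratio of at least 2-fold. The part of immediate early RNA in the Nr4a2 and Nr4a3 levels was not tested beyond this.

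Nr3c1, the glucocorticoid receptor, was the member called higher from E16.5 to P5. Sst-high cells held 1.94 CPM [1.29-2.81], 6.75 [4.58-9.58] and 26.6 [22.2-31.5] at E16.5, P1 and P5, and Sst-silent cells 1.58 [0.580-3.44], 6.26 [3.00-11.5] and 24.9 [18.4-33.1]. Both classes had higher values at P5 with no overlap with either earlier stage. The place of P1 between them did not hold under the stricter filter, where P1 had 0 Nr3c1 UMIs in both classes (184 and 102 cells; P1 over E16.5 -1.68 and -1.51). Nos1 cells had 1.68 [0.0426-9.38], 12.2 [7.81-18.1] and 8.15 [4.66-13.2], with overlapping intervals at P1 and P5. The log2 ratio of P5 over E16.5 was 3.23 in Sst-high and 3.33 in Sst-silent cells, and 1.77 in Nos1 cells, which rests on 1 UMI at E16.5. With a pseudocount of 5 CPM the Nos1 ratio was 0.98 and the call was lost. Thinned after classing, Nr3c1 had too few UMIs to be called, but went from 2.42 to 31.2 CPM in Sst-high and from 2.85 to 22.9 in Sst-silent cells. Nos1 over Sst-high cells gave 0.77 at P1 but -1.59 at P5. The P1 value was not steady, as it was -0.64 (9 UMIs) when cells were thinned before classing and 0.18 without the Neurod cells. With the stricter filter it was 2.49, from 4 UMIs in Nos1 and 0 in Sst-high cells. Part of the P1 value sat in the Neurod cells (53.7 CPM, against 7.85 [4.29-13.2] in the remaining Nos1 cells). The share of Sst-high cells with an Nr3c1 UMI was 1.30%, 3.57% and 12.9%, the last 5.98% after thinning. Excitatory cells also held Nr3c1, at 5.02, 28.0 and 64.0 CPM, and every Sst-high marker group at P5 carried it, from 15.7 to 35.1 CPM.

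Nr3c2 was near the floor. Its UMIs numbered 0, 10 and 1 in Nos1 cells, 2, 3 and 3 in Sst-high cells and 0, 1 and 2 in Sst-silent cells across E16.5, P1 and P5. Only P1 Nos1 cells lay above this, with 5.08 CPM [2.43-9.34] against 0.653 [0.135-1.91] in Sst-high cells. Of these 10 UMIs 4 lay in the Neurod cells, and the remaining Nos1 cells held 3.36 [1.23-7.32], overlapping with Sst-high cells. At E16.5 the upper limit was 6.21 CPM in Nos1 and 0.972 in Sst-silent cells. Of 10 corticosteroid chaperones, enzymes and target genes with enough UMIs, 1 was called lower in Nos1 cells, beside 0.746% of all genes. This was Zbtb16 (log2 ratios -3.26, -1.38 and -1.84). None was called in Sst-silent cells. Fkbp5, a common target of Nr3c1, was the 1 gene of the list called by stage. It was lower at P5 (-1.18, -1.81 and -1.32 in Nos1, Sst-high and Sst-silent cells), the other way from its receptor. For so few genes this single call lies close to the 7.52% of all genes called lower by stage.

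Esrrg differed in opposite directions in the Sst-high and Sst-silent classes. Sst-high cells had 9.24 CPM [7.73-10.9], 4.79 [3.00-7.25] and 2.82 [1.54-4.73] at E16.5, P1 and P5. Sst-silent cells had 1.84 [0.741-3.80], 3.76 [1.38-8.18] and 8.31 [4.75-13.5], and Nos1 cells 8.42 [2.73-19.6], 3.55 [1.43-7.32] and 4.58 [2.10-8.70]. The former were lower and the latter higher at P5 than at E16.5, each without overlap, and Nos1 intervals overlapped at all stages. At P1 the 3 classes could not be separated. At E16.5 Esrrg was most concentrated in small groups: 90.3 CPM [57.3-136] in the 25 Cbln4 cells, 21.1 [8.47-43.4] in Tac1 cells and 16.2 (upper limit 21.3) in Etv1 cells, but 0.490 [0.0124-2.73] in Npas1 cells. Of the 133 UMIs of the class, however, the Cbln4 cells held only 23 and the Tac1 cells 7, with 51 in the 263 Etv1 cells. Esrrg also went with Sst itself at E16.5, at 13.9 [11.5-16.6] in cells with 20 or more Sst UMIs and 2.26 [1.20-3.86] in cells with 5 to 19. In the later libraries the Cbln4 cells numbered 25 with no Esrrg UMI at P1 (upper limit 16.2 CPM) and only 5 at P5. Esrrg was thus scarce in the Npas1 cells, where Nr2f2 was high.

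Thra was present in most cells of every class. Nos1 cells held 569 CPM [510-633], 504 [473-537] and 970 [927-1015] at E16.5, P1 and P5, Sst-high cells 752 [737-766], 887 [860-915] and 1512 [1478-1547], and Sst-silent cells 976 [945-1008], 1042 [993-1093] and 1747 [1689-1807]. P5 was the highest stage in every class without overlap, and Sst-silent cells were above Sst-high cells and these above Nos1 cells at every stage. In the main analysis neither Nos1 nor Sst-silent cells differed 2-fold from Sst-high cells. At P1, though, Sst-silent cells held over 2-fold the Nos1 value (1042 against 504 CPM). With the stricter filter P1 Nos1 and Sst-high cells held 349 and 729 CPM, past 2-fold. Over the settings the P1 log2 ratio of Nos1 over Sst-high cells ranged from -1.45 to -0.75, with -0.81 in the main analysis. P5 over E16.5 gave log2 ratios of 0.77, 1.01 and 0.84 in Nos1, Sst-high and Sst-silent cells, so only Sst-high cells passed 2-fold and Thra was not called. Nos1 cells with Chodl were the low part of their class, with 203 [126-310], 346 and 881 [829-935] CPM against 646, 674 and 1120. Within these Chodl cells P5 was thus more than 2-fold the E16.5 value. They made up 15 of the 67 Nos1 cells at E16.5 and 328 of the 547 at P5. The part of this shift in the Nos1 ratio of Thra was not tested. Thinned shares of cells with a Thra UMI went from 53.8% at E16.5 to 81.6% at P5 in Nos1 cells, from 74.3% to 93.8% in Sst-high cells and from 84.7% to 96.6% in Sst-silent cells. Excitatory cells had 650, 1273 and 2593 CPM, hence none of these types lacks Thra.

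The other thyroid hormone receptor gene, Thrb, was called for stage and for class. Its log2 ratio of P5 over E16.5 was 2.50, 3.29 and 3.64 in Nos1, Sst-high and Sst-silent cells, and that of Nos1 over Sst-high cells -1.35, -1.57 and -2.14. Thrb thus shared the direction of Thra for both comparisons with larger ratios. Klf9, a target of thyroid hormone and glucocorticoids, had 4.67, 4.71 and 4.78 for P5 over E16.5. At E16.5 Klf9 had 0 UMIs in Nos1 and Sst-silent cells, so the size of the first and last ratio was set by the pseudocount of 1 CPM. It was the 1 gene called of the 2 with enough UMIs for stage on the thyroid hormone list, beside 9.46% of all genes. None of the 3 or 2 with enough UMIs was called between classes. Klf9 went the way of Thra, Thrb and Nr3c1, which cannot be told apart by it.

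The matrices held 39 other nuclear receptors. In Nos1 over Sst-high cells, 1 of 16 was higher, Rarb (log2 ratios 3.43, 2.49 and 2.76), a receptor for retinoic acid, and 1 lower, Thrb, beside 0.975% and 0.746% of all genes. None of 17 was called for Sst-silent cells, and by stage 2 of 14 were higher and 1 lower, near the all-gene rates. Whether Rarb lay in the same Neurod cells as Rorb and Nr4a3 was not tested. Of 21 coregulators none was called between classes. By stage 4 were higher, Nrip1 (1.77, 2.04 and 1.22 in Nos1, Sst-high and Sst-silent cells), Ncoa7 (1.11, 1.41 and 1.16) and Ppargc1b (1.32, 1.45 and 2.45) among them, and 1 lower, Hdac3 (-1.63, -1.36 and -1.12), beside 9.46% and 7.52% of all genes. Member medians of the Nos1 over Sst-high log2 ratio were -0.27, -0.58 and -1.12, against -0.03, -0.02 and -0.06 for all genes.

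Marker lists described the cells in which the members were read. Among all genes, 0.975% were called higher and 0.746% lower in Nos1 cells, and 0.299% and 0.725% in Sst-silent cells. By stage the all-gene shares were far larger, 9.46% higher and 7.52% lower. Of 13 long-range projection genes with enough UMIs, 11 were called higher in Nos1 cells (medians 2.07, 3.15 and 4.35), 3 of 12 lower in Sst-silent cells and 4 of 11 higher by stage. Nos1 itself is on this list, and its call in Nos1 cells is fixed by the class rule. Martinotti genes had 5 of 11 called lower in Nos1 cells, 1 of 11 lower in Sst-silent cells and 4 of 11 higher by stage; Nr2f2 thus shared its low Nos1 level with several of them. Non-Martinotti genes gave no calls in Nos1 cells or by stage and 1 of 8 higher in Sst-silent cells. Of the medial ganglionic eminence genes, 1 of 13 was lower in Nos1 cells, 1 of 13 lower in Sst-silent cells, namely Sst, which the class rule fixes, and 2 of 12 lower by stage. Genes of caudal ganglionic eminence and Meis2 cells had 1 of 3 higher in Nos1 cells, none of 2 in Sst-silent cells and 1 of 3 lower by stage. For excitatory genes none of 2 was called in Nos1 cells, with medians of 3.39, 2.06 and -0.15, and none elsewhere; the list summed to 1375, 652 and 252 CPM in Nos1 cells against 437, 317 and 124 in Sst-high cells, with Bcl11b, which is not limited to excitatory cells, the most abundant gene (672, 469 and 246 in Nos1 cells) and Eomes at 0 in Nos1 cells at every stage. Nr4a3 in Nos1 cells had the same stage order as this sum, and the part of excitatory RNA in it was not tested beyond the split above. Genes of glia and progenitors, of microglia, endothelium and blood, and of ER stress gave no class calls, and by stage only ER stress genes had 1 higher and 1 lower of 8. Glial RNA in Nos1 cells summed to 48.8, 14.7 and 12.7 CPM and that of microglia, endothelium and blood to 11.8, 14.2 and 21.4. These sums were small beside Thra but not beside Nr4a2, Nr3c2 or Esrrg. Beside Nr2f1 they were small at E16.5 and P1 but not at P5, where it stood at 44.3 CPM.

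The members share a short coding stretch in the first zinc finger, the P box, which sets the short DNA site that a receptor reads. Below, 24 bases of the coding strand are printed for 5 members, with the 15 bases of the P box in capitals and the flanks in lower case. They lie in GRCm38 at chr13:78198253-78198276 (minus strand) for Nr2f1, chr7:70360021-70360044 (minus) for Nr2f2, chr2:57111579-57111602 (minus) for Nr4a2, chr4:48052175-48052198 (plus) for Nr4a3 and chr8:77085627-77085650 (plus) for Nr3c2.
Nr2f1: tgcGAGGGCTGCAAAAGTttcttc
Nr2f2: tgcGAGGGCTGCAAGAGCttcttc
Nr4a2: tgtGAGGGCTGCAAAGGTttcttt
Nr4a3: tgcGAGGGCTGCAAGGGCttcttc
Nr3c2: tgcGGCAGCTGCAAAGTCttcttc
Nr2f1 and Nr2f2 had 22 of 24 bases in common, and so had Rora and Rorb, whose stretches are split between a pair of exons. Nr4a3 and Thra had the same 15 bases in the P box although they belong to different groups, and Nr2f2 and Nr4a3 differed at 1 of 24 bases. Nr3c2, a steroid receptor, shared 16 of 24 bases with Esrrg and no more than 19 with any of the members compared, which did not include Nr3c1, the other steroid receptor. The genes differ greatly in size, from 10.8 kb for Nr2f1 and 14.8 kb for Nr2f2 to 606 kb for Esrrg and 734 kb for Rora, each on its own chromosome. Pairs of the COUP-TF, ROR and Nr4a groups were not alike in level over the 9 sums of class and library. Nr2f1 and Nr2f2 had a Pearson correlation of 0.12, Rora and Rorb 0.13, and Nr4a2 and Nr4a3 0.01. The last pair shared only 20 of 24 bases, and closeness of sequence was not compared with level over all pairs.

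Among members the highest correlation over the 9 sums was that of Rorb with Nr4a3, 0.72, both higher in the Neurod cells, and the lowest that of Nr4a3 with Thra, -0.88. Outside the members, among 7856 genes compared, Nr2f1 was most like Dlx6os1 (0.988) and Tada2a (0.984), and Nr2f2 most like Elfn1 (0.935), a gene of the Martinotti list, then Kctd8 (0.927). Nr4a3 was most like Meis2 (0.939), Nr3c1 like Fam13b (0.980) and Thra like Ube3b (0.951). For Rora the best value was lower, 0.881 with Pcgf6. With 9 sums from 3 libraries such values are easily high, and they say nothing of shared function.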

How the data were processed

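UMI counts per gene and cell were used as deposited by the authors, who made them with Cell Ranger 3.1.0 (E16.5, P5) or 3.0.2 (P1) on GRCm38 with its own calling of cells, and with no normalization. The libraries held 4478, 4440 and 3406 barcodes at E16.5, P1 and P5, of which 3952, 2501 and 2980 (88.3%, 56.3% and 87.5%) had more than 700 genes and under 10% mitochondrial UMIs. Sequences of 10 barcodes occurred in more than 1 library (3 in E16.5 and P1, 1 in E16.5 and P5, 6 in P1 and P5), and each library's cells were kept. For each class and library the UMIs of all cells were added up and scaled to CPM. Log2 ratios used a pseudocount of 1 CPM and needed at least 10 UMIs in both sums together. Intervals are exact Poisson, Clopper-Pearson or, for ratios, conditional binomial, without the pseudocount. Lhx6 cells with Nos1 but no Sst UMIs (2, 26 and 14 cells) were counted as Nos1 cells.

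The members and the gene lists (other nuclear receptors, coregulators, thyroid hormone, corticosteroid and clock genes, immediate early genes, cell type markers, ER stress) were chosen with earlier results of these data known. The strand used in counting is not given, so UMIs of Nr2f1 and A830082K12Rik, of Thra and Nr1d1, and of Rora and Esrrg and the transcripts inside them may be mixed where they overlap. Software was scipy 1.17.1, matplotlib 3.10.9, pandas 2.3.3 and numpy 2.4.6 under Python 3.11.15, and the code was tested on simulated data.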

Additional observations from a re-analysis of the deposited data

Results flagged for a closer look

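For 3 members a difference larger than counting error ran one way in 1 group and the other way in another. The log2 ratio of Nr3c1 in Nos1 over Sst-high cells was 0.77 at P1 and -1.59 at P5. The P1 ratio was 0.18 without the Neurod2 or Neurod6 cells and -0.64 when cells were thinned before classing. With the stricter filter it was 2.49, from 4 against 0 UMIs. For Rora, Sst-silent over Sst-high cells gave 0.81 at P5 and -1.36 at E16.5. For Esrrg the same comparison gave 1.29 at P5 and -1.85 at E16.5, and its P5 over E16.5 ratio was 1.71 in Sst-silent and -1.42 in Sst-high cells. Why these groups differed was not tested.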

How the results depend on the processing

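Of 2047 member values recomputed under 15 planned settings and 1 chosen after seeing the data, 1792 stayed within their counting interval, 247 moved, and 8 changed the sign of a ratio of at least 2-fold. Rorb in Nos1 over Sst-high cells at E16.5 became -2.26 when cells were thinned to 2000 UMIs before classing, and -2.38 without cells with a Neurod2 or Neurod6 UMI. Both values rest on 0 Rorb UMIs in the Nos1 cells (32 and 52 cells), so the pseudocount of 1 CPM set their size. Nr4a2 in the same comparison at P1 became 0.36 when thinned after classing and 0.57 before. With a strict filter (more genes, under 5% mitochondrial UMIs), P1 over E16.5 became -0.23 for Nr2f2 in Nos1 cells, and for Nr3c1 -1.68 in Sst-high and -1.51 in Sst-silent cells, where P1 then had no Nr3c1 UMI; thinned after classing, the last was -0.68. Members called higher in Nos1 cells went from 1 to 0 with at least 3 Nos1 UMIs, per-cell CPM means or a pseudocount of 5 CPM. The same held without the 20% of cells richest in immediate early RNA. It also held with the strict filter, thinning before classing or without the Neurod cells, where Rorb had too few UMIs to be called. Members called lower went from 1 to 2 (Nr2f1, Nr2f2) with the strict filter, at least 3 Nos1 UMIs, thinning before classing or without the cells rich in immediate early RNA. Leaving out 1 library gave 1 to 2 higher and 1 to 3 lower. Lower calls in Sst-silent cells went to 0 with thinning before classing. From E16.5 to P5, higher calls went to 0 with a pseudocount of 5 CPM or either thinning (Nr3c1 then had too few UMIs), and lower calls to 2 (Nr2f1, Nr4a3) without a minimum of UMIs. The cause was not tested.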
